A study of Mus musculus with 12 samples.

Results

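The genes described are those of the cytosolic ribosomal proteins, the protein subunits of the ribosomes that translate nuclear-encoded mRNA. They were selected by name, as genes called Rpl or Rps followed by a number and at most 1 letter, together with Rpsa, Rplp0, Rplp1 and Rplp2. Of 45706 gene rows, 81 had such a name, and the 77 with a mean of at least 1 TPM over the 12 libraries were kept. Levels are in TPM, a unit that is corrected for transcript length and sums to 1000000 in each library, so that a gene's TPM is its share of all measured transcripts. The 77 genes comprise 43 of the large subunit, 31 of the small subunit and 3 of the stalk of the large subunit. Their mean TPM chose them and ranged from 239 to 5853, so the members lie far above the limit. Just inside it were Rpl29 at 239 TPM and Rps27l at 277 TPM. Just outside were Rpl3l at 0.112 TPM and Rps4l at 0.0244 TPM, and Rpl10l and Rpl39l were listed at 0 in every library.

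The libraries came from BN1, an immortalized murine hepatoblastoma (HB) line derived from 1 liver tumor that was driven by mutant β-catenin and mutant NRF2. BN1 carries Cdkn2a mutations from Crispr targeting, which the study describes as a partial inactivation. All 4 groups share this genotype, a stably transfected EGFP reporter under the Tie2/Tek promoter, which is active in endothelial cells, and the label EGFP+. The transfected clones were pooled. UN cells were unsorted and kept in 21% oxygen. UH cells, also unsorted, spent 2 days in 1% oxygen. SN cells were the brightest EGFP cells, sorted after 2 days in 1% oxygen and then grown in 21% oxygen for about 10 days. SH cells were SN cells returned to 1% oxygen for 2 more days. Each group has 3 libraries. The study calls them independent replicas, and neither it nor the labels say whether they came from separate cultures, so p-values measure the spread between these libraries, which may be technical.

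A ribosome contains a single copy of nearly every ribosomal protein, apart from the stalk, and the cell makes them in matched amounts from unlinked genes. Their mRNAs are short, abundant and stable, and they begin at a cytosine followed by a run of pyrimidines, the terminal oligopyrimidine (TOP) motif. Through this motif their translation follows the activity of the kinase mTOR, which hypoxia is known to restrain, with Larp1 binding the motif when mTOR is inactive. Many ribosomal protein genes have processed pseudogenes elsewhere in the genome, and some have a paralog that replaces them in certain tissues.

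Sequences near the starts of 6 members described below are shown because a TOP motif lies at the start of the mRNA. Each line is 30 bases of a RefSeq promoter entry (GRCm38.p6), 5′ to 3′ on the gene's own strand, and the capitals mark the longest pyrimidine run that begins with C near a RefSeq start, which can differ from the starts in other annotations.
Rps26 (chr10:128626483-128626512, minus strand): gccgccggatCCTCTTTCgagtcttggctc
Rps15 (chr10:80292446-80292475, plus strand): gcagcccgtaCTTCCTTTTCCgagtaaccg
Rps12 (chr10:23787182-23787211, minus strand): ccaccgccggCCTTTTCCCCTgccgccgcc
Rps24 (chr14:24490666-24490695, plus strand): gcgctggggtCCTTCCTTgcgcgttgatat
Rps6 (chr4:86857349-86857378, minus strand): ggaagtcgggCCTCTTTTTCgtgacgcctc
Rps27l (chr9:66946054-66946083, plus strand): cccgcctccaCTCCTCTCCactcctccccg
These genes were picked after their values were seen. The run is 11 bases in Rps15 and Rps12, 10 in Rps6, 9 in Rps27l, and 8 in Rps26 and Rps24. Relative to the RefSeq start it begins at 5 in Rps26, 26 in Rps15, 9 in Rps12, -2 in Rps24, -1 in Rps6 and -22 in Rps27l. The run of Rps27l ends before that start. Another run of 9 bases follows it in the same line, and the earlier one is marked. The runs were not matched to measured mRNA starts, so none is shown to be a TOP motif here. Rps24 and Rps27l each have a second RefSeq start, with runs of 6 and 5 bases, and the first is shown. A promoter entry was found for 57 of the 77 members. A C followed by at least 7 pyrimidines, read on the sense strand between 20 bases before and 30 bases after a start, was present in 32 of the 57 (56.1%), and in 17.0% of all 27025 genes with an entry. CTTTC in the same window, which can overlap that run, was present in 21 members (36.8%) and in 7.66% of all genes. Of motifs searched on both strands of the whole 300 bases, CCGGAAG, an Ets-type sequence, was present in 24 members (42.1%) and in 9.93% of all genes. GCCATNTT, the core bound by Yy1, was present in 11 members (19.3%) and in 6.96% of all genes. These matches describe letters in the reference and were not tied to any change.

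All 77 members were among the 18909 genes that reached a mean of 0.1 TPM and were tested. One limma model of the 4 groups, fitted to log2(TPM + 1), gave every comparison. A gene passed at a Benjamini-Hochberg adjusted p under 0.05 over all genes tested. Log2 fold changes are given with their standard error (SE), and n is 3 libraries in each group. The sequencing depth is unknown, so precision rests on the spread between libraries. Transcripts of genes encoded in mitochondria took 5.18–7.55% of TPM in UN, 1.67–2.53% in UH, 7.64–8.38% in SN and 2.66–4.68% in SH. The 10 markers of HB summed to 231–515 TPM in every library, with Krt18 present in all groups and Ttr near 0. Krt8, Dlk1 and Igf2 among them were at 13.5–114 TPM in unsorted and at most 12.2 TPM in sorted cells. The 8 endothelial markers summed to 0.549–0.680 TPM in UN, 0.448–0.966 in UH, 2.36–3.08 in SN and 4.74–5.43 in SH, with 7 of the 8 at a mean under 1 TPM. Most of the sum in SN and SH was Tek, whose promoter drives the EGFP used for sorting. Tek was at a mean of 0.133 TPM in UN, 0.156 in UH, 2.49 in SN and 3.04 in SH. Vwf was at 0.273, 0.229, 0.103 and 1.26 TPM. The 7 fibroblast markers summed to 1013–4314 TPM in UN and 4546–6806 in UH, against 165–185 in SN and 41.0–65.3 in SH, and most of the sum in unsorted cells was Col1a1, Col3a1 and Col1a2. Between UN and UH 3 of the 7 rose and 3 fell. Dcn was at a mean of 172 TPM in UN, 53.8 in UH, 119 in SN and 25.4 in SH, and Pdgfrb at 44.7, 15.2, 43.8 and 6.08 TPM. UN replicate 1 stood apart from UN replicates 2 and 3. It held more Col3a1 (1960 TPM against 222 and 173) and Dcn (349 against 86.2 and 81.3), and less Dlk1 (13.5 against 83.8 and 78.7). The 7 leukocyte markers summed to 5.03–9.69 TPM in UN, 21.5–22.6 in UH, 9.69–14.5 in SN and 58.6–62.6 in SH. Cd68 made up most of the sum in UH, SN and SH, while Ptprc and Cd3e were near 0. In UN the means of Cd68 and Csf1r were 3.09 and 2.91 TPM, and Csf1r was at a mean of 7.21 TPM in UH. The 4 erythroid markers reached at most 16.9 TPM. These levels move with the groups, and their part in the results below was not tested.

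Ribosomal protein transcripts held 13.1–20.6% of all TPM and were least abundant in sorted cells under normoxia. Their summed share was 16.0%, 15.5% and 15.3% in the 3 UN libraries, 20.6%, 17.3% and 16.2% in UH, 13.3%, 13.1% and 13.2% in SN and 16.4%, 16.6% and 17.7% in SH. The SN libraries lay below every other library, the UN libraries came next, and the UH and SH libraries overlapped each other above them. Group means were 15.6% ± 0.350 (SD, n = 3) in UN, 18.0% ± 2.32 in UH, 13.2% ± 0.144 in SN and 16.9% ± 0.684 in SH. The sum over selected genes was given no test. In a bulk culture, fewer cells of a kind and less RNA per cell cannot be told apart, and a share does not give the amount per cell.

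The spread of the share was uneven. UH replicate 1 held the highest share of all, and 71 of the 77 members were highest there among the UH libraries, while 65 were lowest in UH replicate 3. Without UH replicate 1 the UH mean was 16.7%. Leaving the mitochondrially encoded genes out of the total gave 17.3%, 16.3% and 16.2% in UN, 17.7% and 16.6% in UH replicates 2 and 3, 14.6%, 14.1% and 14.4% in SN and 16.8%, 17.1% and 18.5% in SH. UH replicate 1 stayed the highest. On that basis the UN range overlapped those of UH and SH, and the SN libraries remained the lowest 3. The large subunit genes took 8.26–8.37% of TPM in UN and 6.81–7.01% in SN, and the small subunit genes 5.85–6.44% and 5.07–5.17%. The 3 stalk genes took 1.18–1.22% in UN and 1.16–1.24% in SN, which overlapped.

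**Figure D1:**
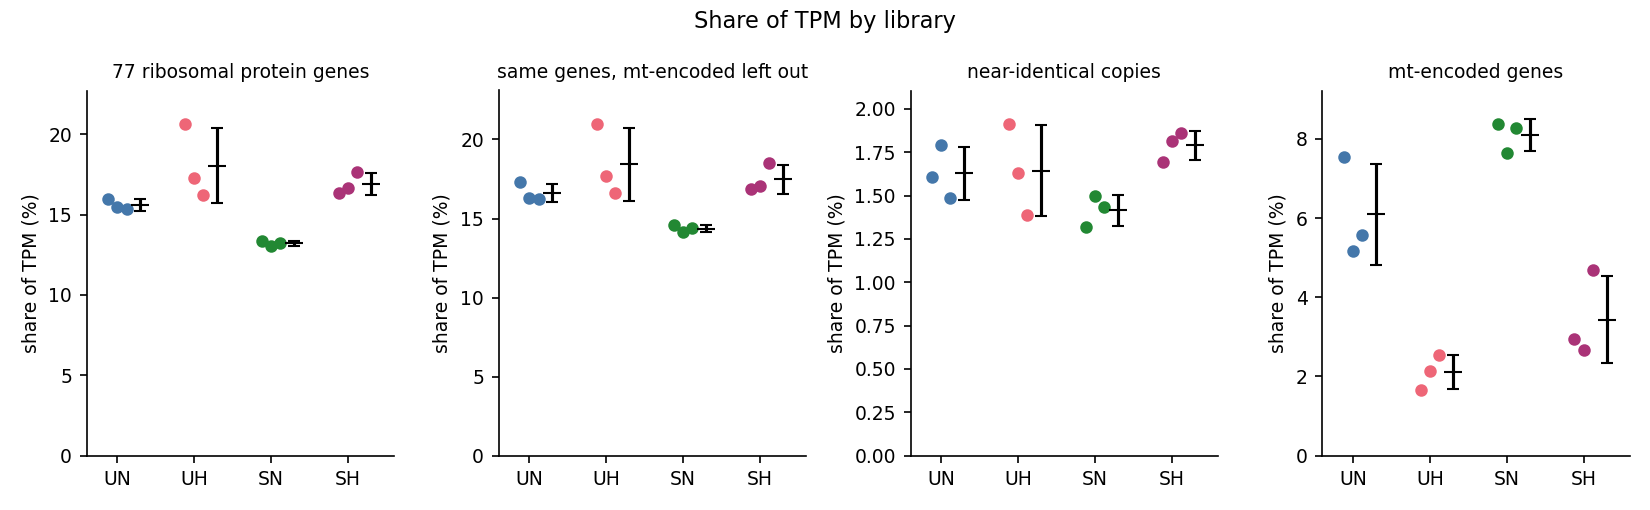
Share of TPM (%) in each library (points), with the group mean and SD (black, n = 3), for the 77 genes, for the same genes after mitochondrially encoded (mt) genes are left out of the total, for near-identical copies of the 77 genes, and for the mt-encoded genes. The SN libraries, at 13.1–13.3%, lie below all others in the first panel, and UH replicate 1 stands apart at 20.6%.

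Levels differed widely between subunits that the ribosome needs in equal number. The median member was at 1866 TPM, and 65 of 77 were above 1000 TPM. The 6 genes with the highest mean were Rplp0 and Rplp1 of the stalk, Rps12, Rps26, Rpl13a and Rpl23, and together they held 17.4% of the TPM of the family. Rplp0, the scaffold of the stalk, was at 5290.3, 6881 and 6104 TPM in UN, 5923, 5961 and 5865 in UH, 4848, 4829 and 5344 in SN and 6113, 6354 and 6720.2 in SH. Its partner Rplp1 was at 4433, 2899 and 4167 TPM in UN, 6788, 4838 and 4542 in UH, 4426, 4567 and 4685 in SN and 5594, 4295 and 6329 in SH. Its UH libraries lay just above the UN libraries, and every other pair of groups overlapped. The SN mean was the lowest of the 4 for 58 members, the UN mean for 11, the SH mean for 6 and the UH mean for 2. The highest mean was in UH for 34 members, in SH for 28, in UN for 13 and in SN for 2.

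The median coefficient of variation of the members was 7.63% in UN, 13.6% in UH, 4.76% in SN and 6.03% in SH. Over all 570 genes at or above the level of the lowest member, members included, it was 10.2%, 10.3%, 7.55% and 8.72%. The largest in UN was that of Rpl41, which encodes the shortest ribosomal protein, at 36.3%. UN replicate 1 held more Rpl41 (3576 TPM against 2279 and 1786), Rps12, Rps15, Rps26 and Rps27l than the other UN libraries.

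**Figure D2:**
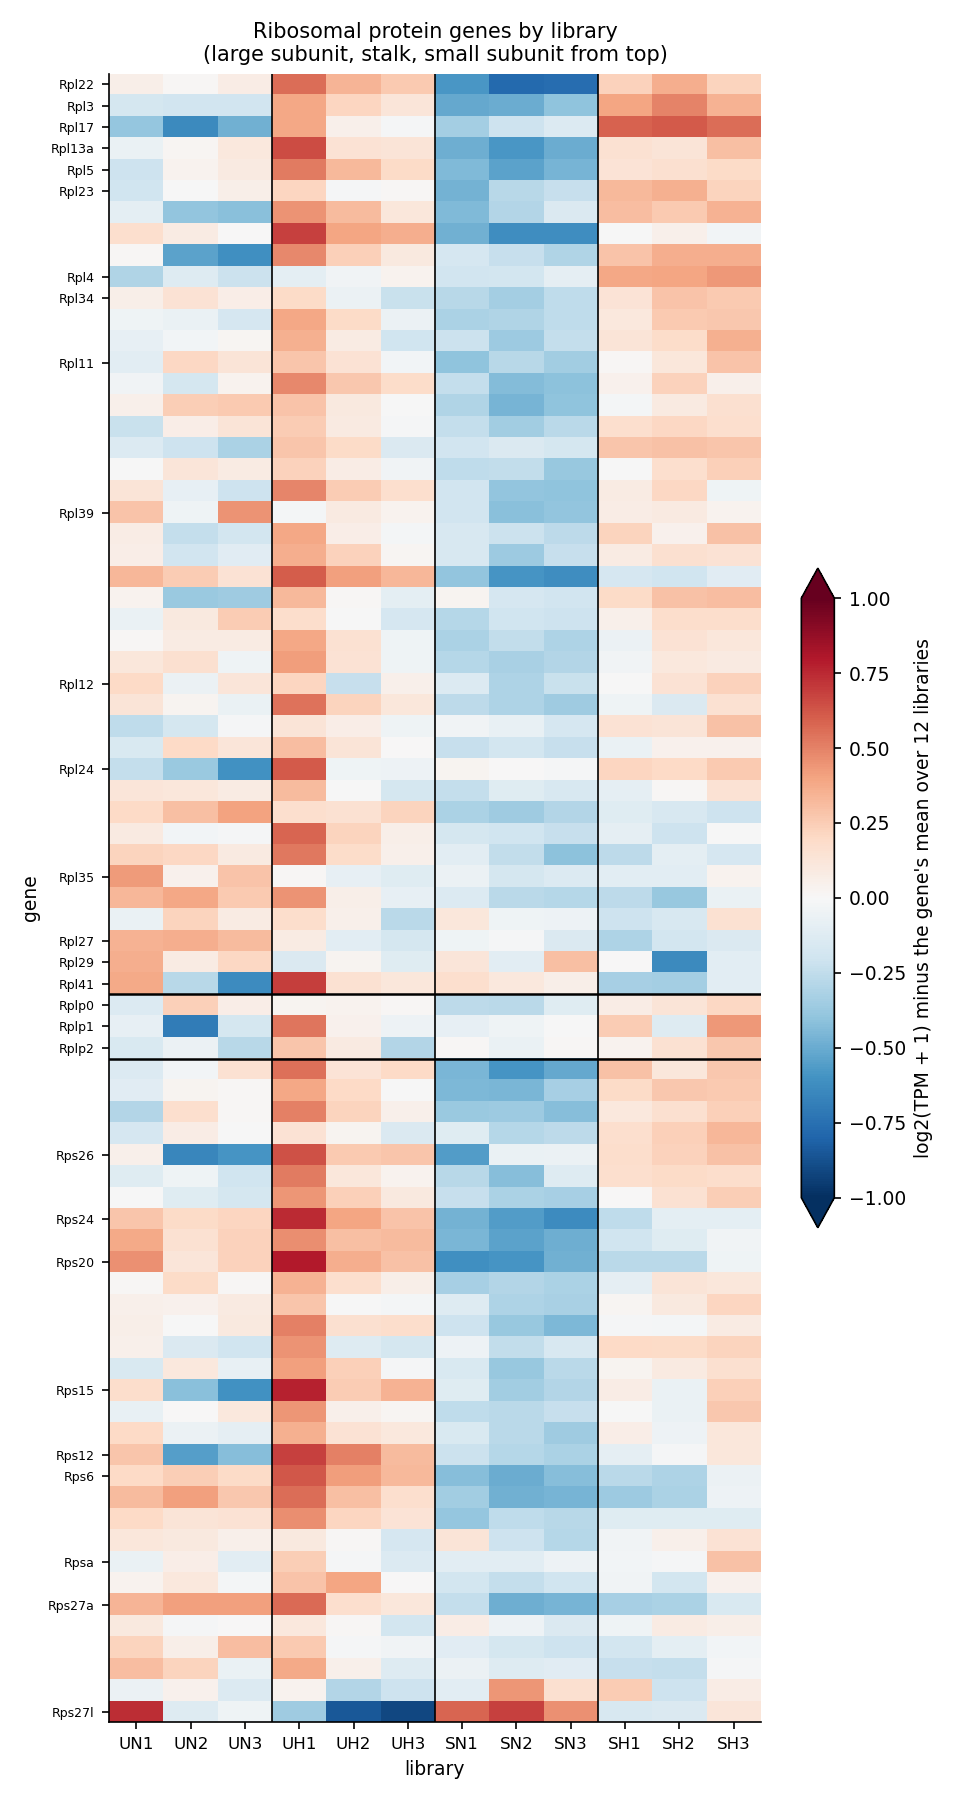
Heat map of the 77 genes (rows, by subunit and then by the change from SN to SH, with the genes singled out in the text labelled) in the 12 libraries (columns), as log2(TPM + 1) minus the gene's mean over all libraries, with colors saturating at 1 in either direction. The SN columns are below the mean for most genes, 71 of the 77 genes are highest in UH1 among the UH columns, and Rps27l in the last row runs against the others.

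The first comparison asked what 2 days of hypoxia did in unsorted cells. Of the members that passed, more rose than fell, except after quantile normalization. Of 77, 15 rose and 3 fell, against 13.0% and 33.5% of all genes tested. The median log2 fold change of members was 0.18, where the median of all genes was -0.19, and the changes ran from -0.89 to 0.79. The UH libraries lay wholly above the UN libraries for 22 members and wholly below for 4, against 14.9% and 36.2% of all genes. The large subunit gave 11 of the 15 that rose, and the small subunit the other 4.

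Rps26, which lines the path by which mRNA leaves the small subunit, was at 4469, 2754 and 2879 TPM in UN and at 6714, 5174 and 5243 TPM in UH. It rose by 0.79 ± 0.20 (SE, adjusted p = 0.00698) on the log2 scale, the largest rise. Rps15, of the head of the small subunit, was at 3082, 2036 and 1786 TPM in UN and 4627, 3249 and 3457 TPM in UH, a log2 fold change of 0.74 ± 0.20 (SE, adjusted p = 0.00926). Rps12, of its beak, was at 5555, 3141 and 3412 TPM in UN and 7401, 6518 and 5718 TPM in UH, with 0.74 ± 0.19 (SE, adjusted p = 0.00765). For all 3 genes the highest UN library was replicate 1, and it stayed below the lowest UH library. Rpl27, a large subunit protein, moved the other way, from 1598, 1615 and 1563 TPM in UN to 1327, 1168 and 1108 TPM in UH, a log2 fold change of -0.41 ± 0.09 (SE, adjusted p = 0.00372). Rpl35, which lies beside the exit of the nascent chain, was at 2114, 1627 and 1923 TPM and 1589.9, 1488 and 1450.4 TPM, and fell with a log2 fold change of -0.32 ± 0.11 (SE, adjusted p = 0.032). The groups did not overlap for either gene, but with median-of-ratios scaling Rpl27 did not pass (-0.045) and Rpl35 turned to 0.050. The call of Rpl35 was also lost under 8 other alternatives, 4 of which left out 1 UN or UH library (-0.32 to -0.23).

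The direction in unsorted cells rested on the scaling between libraries. Scaling by the median of ratios, which moved the median of all genes from -0.19 to 0, gave 48 members higher and a median of 0.55. With that scaling 4139 of all 18909 genes were higher. Quantile normalization gave 5 members higher, 14 lower and a median of -0.08. Of all 18909 genes, 3760 were then higher and 4409 lower, with a median of -0.02. Without UH replicate 1, 10 members rose and 4 fell, with a median of 0.06, and without UH replicate 3, 27 rose and 2 fell. Fitted without the sorted groups, 5 rose and 1 fell, and Rps15 (adjusted p = 0.0723) and Rps12 (adjusted p = 0.0751) did not pass.

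**Figure D3:**
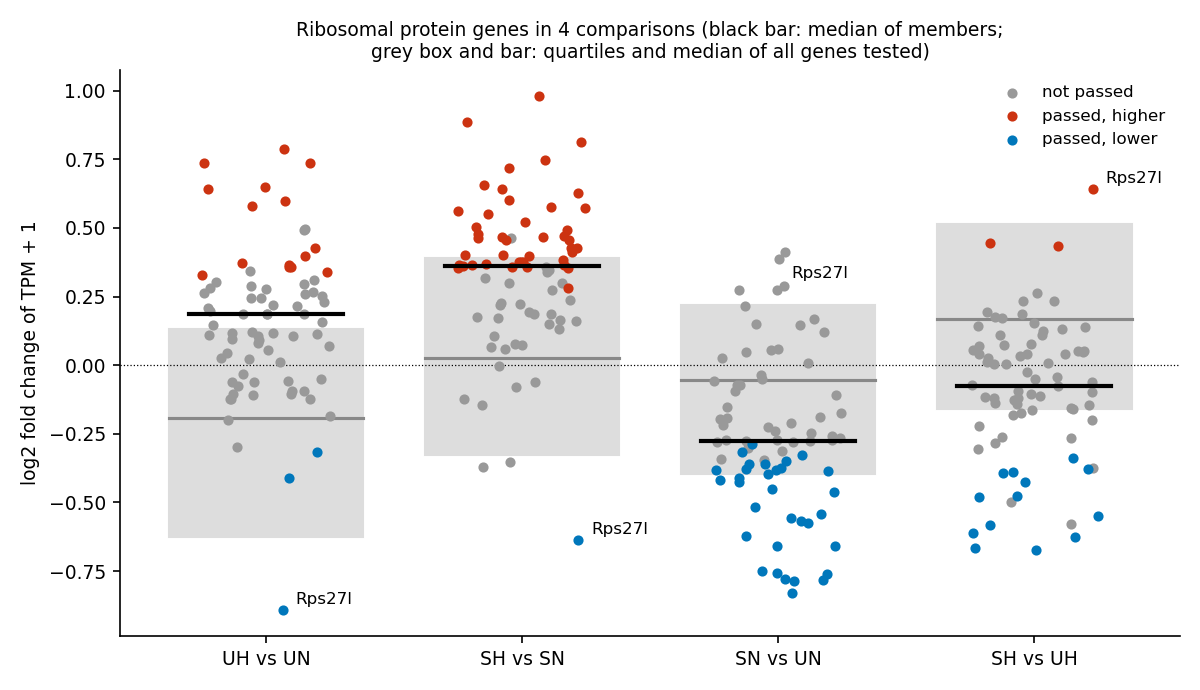
Log2 fold change of TPM + 1 for each of the 77 genes in 4 comparisons, colored by whether the gene passed an adjusted p of 0.05, with the median of the 77 (black) and the quartiles and median of all genes tested (grey). The medians of the members are 0.18 in UH vs UN (-0.08 after quantile normalization), 0.36 in SH vs SN, -0.28 in SN vs UN and, for SH vs UH, -0.07 (0.04 after quantile normalization), and Rps27l is labelled.

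The same question was asked of sorted cells. Of 77 members, 43 were higher in SH than in SN and 1 was lower, against 21.5% and 19.5% of all genes tested. The median log2 fold change was 0.36 (all genes: 0.03), and the changes ran from -0.64 to 0.98. The SH libraries lay wholly above the SN libraries for 60 members and wholly below for 3, against 29.7% and 27.1% of all genes. Across 5 other scalings 21 to 46 members rose and at most 3 fell, and without SN replicate 2 or SH replicate 2 the number that rose was 27. The rise was seen in 29 of 43 large subunit genes, 13 of 31 small subunit genes and 1 of 3 stalk genes, Rplp0.

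Rpl22, an RNA-binding protein of the large subunit with a paralog in Rpl22l1, showed the largest change. It was at 501, 439 and 443 TPM in SN and at 885, 971 and 877 TPM in SH, a log2 fold change of 0.98 ± 0.10 (SE, adjusted p = 1.67e-05). Rpl3, which reaches the peptidyl transferase center, was at 1029.7, 1039 and 1111 TPM in SN and 1931, 2076 and 1870.1 TPM in SH, with 0.89 ± 0.09 (SE, adjusted p = 2.51e-05). Rpl17, at the rim of the exit tunnel, was at 2603, 2863 and 3008 TPM in SN and 4969, 5040.3 and 4866 TPM in SH, with 0.81 ± 0.13 (SE, adjusted p = 0.000325). In all 3 genes the groups were far apart. The paralog Rpl22l1 was at 156, 159 and 152 TPM in SN and 126, 134 and 163 TPM in SH, which overlapped. Rpl5 and Rpl11, which bind Mdm2 when they are free of the ribosome, both rose. Rpl5 was at 1253, 1173 and 1235 TPM in SN and 1869.8, 1903 and 1941 TPM in SH (0.64 ± 0.11 SE, adjusted p = 0.000723), and Rpl11 at 1519, 1659 and 1576 and 2024, 2173 and 2442 TPM (0.48 ± 0.12 SE, adjusted p = 0.00781).

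Members known for functions outside the ribosome or for their modification did not all pass in this comparison. Rpsa, also the precursor of a laminin receptor, was at 2437, 2435 and 2531 TPM in SN and 2571, 2603 and 3200.3 TPM in SH and did not pass. Rps6, whose protein is phosphorylated by the kinases downstream of mTOR, was at 1201, 1144 and 1199 TPM in SN and 1336, 1304 and 1550.1 TPM in SH and did not pass (log2 fold change 0.24 ± 0.10 SE, adjusted p = 0.0924). Rps27a, made as a fusion with ubiquitin, was at 914, 768 and 781 TPM in SN and 857, 868 and 971 TPM in SH and did not pass. Rpl12, at the base of the stalk, was at 2084, 1852 and 1962 TPM in SN and 2282, 2542 and 2694 TPM in SH and did not pass. Rpl13a, known from the silencing of inflammatory mRNAs, was at 2865, 2673 and 2840.4 TPM in SN and 4446, 4391 and 4951 TPM in SH and rose by 0.72 ± 0.14 (SE, adjusted p = 0.00181) on the log2 scale.

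**Figure D4:**
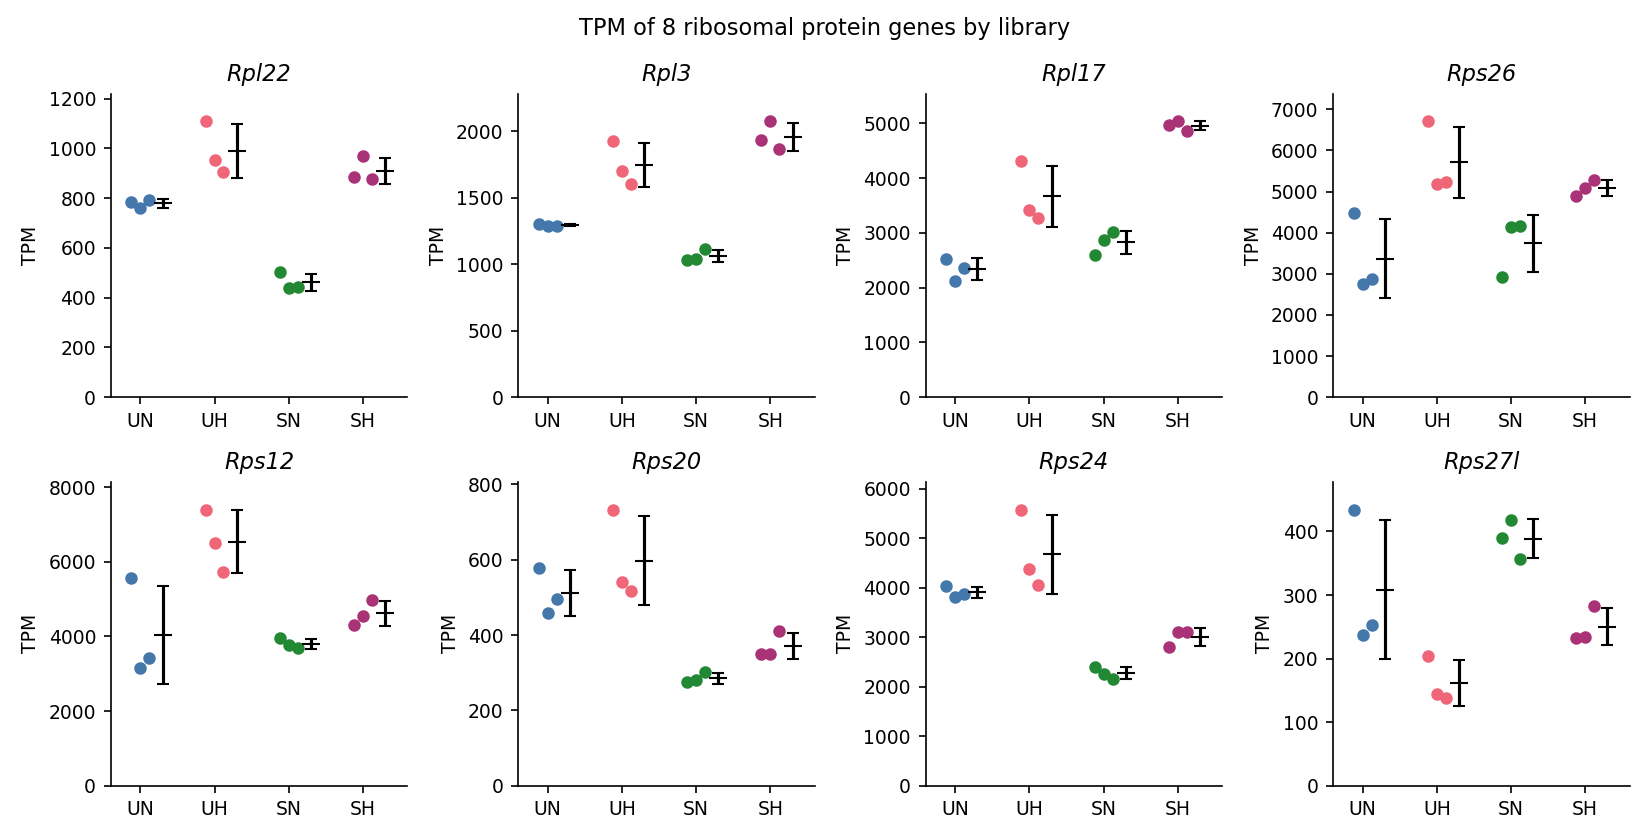
TPM of 8 ribosomal protein genes in each library (points), with the group mean and SD (black, n = 3). Rpl22, Rpl3 and Rpl17 are higher in SH than in SN, Rps26 and Rps12 are higher in UH than in UN, Rps20 and Rps24 are lower in both sorted groups than in the unsorted ones, and Rps27l is lower under hypoxia.

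In both cell populations 11 members rose under hypoxia, among them Rpl3, Rpl5, Rpl7, Rpl10, Rpl17, Rpl22, Rpl26, Rpl31, Rpl37 and Rps23. The same count over all genes is not given here, so whether 11 is unusual cannot be read from it. The hypoxia comparisons of sorted and unsorted cells share no library. A further 32 rose in sorted cells without passing in unsorted cells, which alone does not show that the responses differ. The difference between the responses, (SH - SN) - (UH - UN), was tested directly, and 6 members passed, all with the more positive change in sorted cells, against 17.4% of all genes in that direction and 4.51% in the other. All 6 belong to the large subunit. Rpl34 was at 974, 1034 and 978 TPM in UN, 1067, 894 and 798 in UH, 768, 737 and 784 in SN and 1025, 1140.3 and 1121 in SH, a difference of 0.64 ± 0.15 (SE, adjusted p = 0.0117). For Rpl22 the difference was 0.64 ± 0.14 (SE, adjusted p = 0.00793), and for Rpl39, a protein of the exit tunnel, 0.60 ± 0.17 (SE, adjusted p = 0.0271). Rpl9, Rpl23 and Rpl3 followed with 0.53, 0.51 and 0.46. The median difference of the members, 0.17, was below that of all genes, 0.25. With median-of-ratios scaling limma passed 0 members, and 1 had an unadjusted p under 0.05. That scaling moved the median of all genes from 0.25 to 0.06. With 1 library left out, 17 members passed without UN replicate 1, of which 14 had the more positive and 3 the more negative change in sorted cells. Of all 18909 genes, 4826 and 1335 then passed in these directions, which are larger shares than those of the members. The number of members was 12 without UH replicate 1, and 2 to 3 without UN replicate 3, UH replicate 2 or 3, SN replicate 2 or 3, or SH replicate 1 or 2.

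Under normoxia ribosomal protein mRNAs made up less of the TPM of sorted cells than of unsorted cells. SN cells differed from UN cells by sorting, by 2 days of earlier hypoxia and by about 10 days of expansion. These cannot be told apart here. Of 77 members, 32 were lower in SN than in UN and 0 were higher, against 20.9% and 13.0% of all genes tested; at an unadjusted p under 0.05 limma gave 44 lower and 2 higher. The median log2 fold change was -0.28 (all genes: -0.06). SN libraries lay wholly below UN libraries for 47 members and wholly above for 2, against 28.7% and 20.3% of all genes. Across 5 other scalings 12 to 33 members fell and at most 1 rose. The 12 fell with median-of-ratios scaling (median of members -0.17), where 3527 of all 18909 genes fell (median -0.003). The share of members that fell was then no larger than that of all genes. Without UN replicate 2 or SN replicate 2, 21 members fell, and without UN replicate 1, 34 fell and 4 rose.

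Rps20, of the head of the small subunit, was at 578, 459 and 495 TPM in UN, 733, 542 and 517 in UH, 275, 279.9 and 302 in SN and 349.9, 350.4 and 410.4 in SH. The fall from UN to SN was -0.83 ± 0.14 (SE, adjusted p = 0.000726). Rps24, in which mutations cause Diamond-Blackfan anemia, was at 4038, 3809.6 and 3869 TPM in UN, 5578, 4387 and 4058 in UH, 2403, 2265 and 2156 in SN and 2794, 3107 and 3110.0 in SH, with -0.78 ± 0.13 (SE, adjusted p = 0.000595) from UN to SN. Rps27a was at 1364, 1439 and 1434 TPM in UN and 914, 768 and 781 TPM in SN, with -0.79 ± 0.13 (SE, adjusted p = 0.000584). In these 3 genes both sorted groups lay below both unsorted groups in every library. Rpl24, which bridges the subunits, and Rpl17 were the members whose SN libraries lay wholly above UN, and neither passed. Rpl24 was at 872, 796 and 676 TPM in UN and 1049.9, 1035 and 1022 TPM in SN (0.41 ± 0.16 SE, adjusted p = 0.0687).

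Sorted and unsorted cells were also compared under hypoxia. The same differences in sorting, earlier hypoxia and expansion separated SH from UH. Of 77 members, 3 were higher in SH than in UH and 13 were lower, against 28.3% and 13.4% of all genes tested, with a median of -0.07 that turned to 0.04 after quantile normalization (all genes: 0.17). The SH libraries lay wholly above UH for 8 and wholly below for 17, against 34.5% and 17.2% of all genes. Without UH replicate 1, 5 were higher and 10 lower, with a median of 0.03. Rpl17 (0.45 ± 0.13 SE, adjusted p = 0.0137) and Rpl4, which reaches into the exit tunnel (0.43 ± 0.09 SE, adjusted p = 0.00255), were higher in SH together with Rps27l, and none of these 3 passed with median-of-ratios scaling (0.25, 0.24 and 0.45). Rps6 was at 2484, 2152 and 2018 TPM in UH and 1336, 1304 and 1550.1 TPM in SH, and fell with -0.67 ± 0.10 (SE, adjusted p = 0.000375). Rps20 (-0.67 ± 0.14 SE, adjusted p = 0.00216) and Rps24 (-0.63 ± 0.13 SE, adjusted p = 0.00195) fell as well, without overlap. There were 12 members lower in sorted cells in both oxygen conditions, among them Rpl10, Rpl15, Rpl18, Rpl23a, Rpl38, Rps6, Rps7, Rps20, Rps24 and Rps27a. The comparisons behind this count share no library, and the same count over all genes is not given here.

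The remaining pairs mix oxygen with sorting, earlier hypoxia and expansion. Between SH and UN, 12 members were higher and 15 lower, against 23.6% and 29.6% of all genes, and 25 lay wholly above and 15 wholly below, against 26.5% and 32.9%. The balance turned to 14 higher and 2 lower with median-of-ratios scaling, to 20 and 10 without the 20 highest other genes, and to 14 and 9 without UN replicate 1. One of the 12, Rpl17, was over 2-fold higher (1.09 ± 0.13 SE, adjusted p = 2.22e-05), against 8.97% of all genes. Between SN and UH, 1 was higher and 52 were lower, against 30.4% and 19.6% of all genes, with a median of -0.46. The SN libraries lay wholly above UH for 1 and wholly below for 56, against 34.7% and 24.7% of all genes. Over 2-fold, 1 was higher, Rps27l, and 4 were lower, against 12.3% and 9.17% of all genes. The 4 were Rpl22 (-1.10 ± 0.10 SE, adjusted p = 2.76e-06), Rpl10, which joins the large subunit last, Rps20 and Rps24. There were 12 members that passed in none of the 6 pairs, among them Rpl8, Rpl12, Rpl14, Rpl41, Rplp1, Rplp2, Rps2, Rps13, Rps14, Rps21 and Rpsa. For this number, too, no share of all genes is given.

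Rps27l, the paralog of Rps27 and a known target of Trp53, ran against the family. It was at 434, 237 and 253 TPM in UN, 203, 144 and 138 in UH, 390.5, 418 and 357 in SN and 232, 235 and 284 in SH. The UH libraries lay below all UN libraries, the SH libraries below all SN libraries, and the SN libraries above all UH libraries, while the UN libraries overlapped SN through replicate 1 and SH through the other two. The log2 fold change was -0.89 ± 0.21 (SE, adjusted p = 0.00485) from UN to UH and -0.64 ± 0.21 (SE, adjusted p = 0.0326) from SN to SH, and Rps27l was the 1 member that fell in both. It was higher in SH than in UH (0.64 ± 0.21 SE, adjusted p = 0.0314) and in SN than in UH (1.28 ± 0.21 SE, adjusted p = 0.000358). Some of these calls were close to the threshold. The fall from SN to SH did not pass without any 1 of the SN libraries or without SH replicate 1 or 2 (-0.70 to -0.58), nor with median-of-ratios scaling (-0.57), quantile normalization (-0.53), TPM rescaled without the members (-0.57) or no filter on low values. The fall from UN to UH did not pass with median-of-ratios scaling (-0.53) or without the sorted groups in the fit, and the difference between SH and UH did not pass without UH replicate 2 or 3 or without any 1 of the SH libraries (0.54 to 0.69), nor with median-of-ratios scaling (0.45) or no filter. Its gene lies at chr9:66946086-66949516 on the plus strand (GENCODE M21, GRCm38).

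Departures from the family do not depend on a scaling factor when they are read by setting each gene against the mean log2(TPM + 1) of the 77 members in the same library. On that basis 16 members passed in UH vs UN, 8 higher and 8 lower, against 45.3% of all genes tested. In SH vs SN 8 were higher and 9 lower (39.0% of all genes), in SN vs UN 11 and 12 (29.0%), and for SH against UH 8 and 12 (37.2%). Setting genes against the mean of the members fixes the mean change of the members in advance. That of all genes is free, so the percentages of all genes in this paragraph are not a like background. Rps27l had the lowest value from UN to UH (-1.05 ± 0.18 SE, adjusted p = 0.00037) and from SN to SH (-0.96 ± 0.18 SE, adjusted p = 0.000883), and the highest in SH vs UH (0.74 ± 0.18 SE, adjusted p = 0.00595). Rps26, Rps15 and Rps12 led in UH vs UN, Rps26 with 0.63 ± 0.17 (SE, adjusted p = 0.00969). Rpl22 led in SH vs SN with 0.66 ± 0.10 (SE, adjusted p = 0.000175), where Rpl41 (-0.69 ± 0.18 SE, adjusted p = 0.00811) and Rpl29 (-0.68 ± 0.17 SE, adjusted p = 0.00727) were among the lowest. Rpl24 led in SN vs UN (0.68 ± 0.12 SE, adjusted p = 0.000981), where Rps20, Rps27a and Rps24 were the lowest. In SH vs UH the lowest were Rps20, Rps6 and Rps24. Of the differences between responses, Rpl34 (0.48 ± 0.13 SE, adjusted p = 0.0384) and Rpl41 (-1.03 ± 0.26 SE, adjusted p = 0.0247) passed, against 8.69% of all genes.

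The values of single members carry an uncertainty from copies elsewhere in the genome. A median of 55.2% of the 31-base words in a member's transcript (range 2.60–98.7%) also occurred in another annotated gene, and for 47 members the share was over 50%. There were 303 rows of other genes with at least 50% of their words in a member, 253 of them pseudogenes, belonging to 71 members. They held 1.32–1.91% of TPM in all libraries, and with them added the group means of the family became 17.2% in UN, 19.7% in UH, 14.6% in SN and 18.7% in SH. The most abundant was Rps2-ps10, at 2795, 2805 and 2503 TPM in UN, 2815, 2402 and 2321 in UH, 2770.3, 3156 and 2803 in SN and 2898, 2546 and 2926 in SH. Rpl34-ps1, a copy of Rpl34, was at 1194, 1313 and 1119.8 TPM in UN, 1339.7, 1189 and 982 in UH, 1001, 979 and 1067 in SN and 1418, 1613 and 1465 in SH. Gm10243, a copy of Rpl35a, was listed at 0 in UN replicate 1 and at 1229 TPM in UN replicate 3, with 434 TPM in replicate 2. Rps27l shared 29.6% of its words, Rps20 10.3%, Rpl22 44.8%, Rps26 45.5%, Rpl17 79.2%, Rpl3 87.6% and Rps12 90.4%. Rpl29, among the lowest relative to the members in SH vs SN, shared 78.7%. Its mean was 256 TPM in SN and 202 in SH, while its copies summed to 1105 and 1130 TPM. The part of read assignment in its low value was not tested. With the copies added to their members, 44 members rose and 1 fell in SH vs SN.

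A few ribosomal proteins fall outside the name rule. Fau, which encodes a small subunit protein fused to a ubiquitin-like peptide, had larger log2 fold changes than every member in both hypoxia comparisons. It was at 1149, 1068 and 1009.8 TPM in UN, 3780.2, 2814 and 2593 in UH, 1237, 1190.2 and 1222 in SN and 2645, 2687 and 2322 in SH. The hypoxic libraries lay above all normoxic libraries, with 1.49 ± 0.13 (SE, adjusted p = 4.39e-06) in unsorted and 1.06 ± 0.13 (SE, adjusted p = 8.19e-05) in sorted cells. Rps3a1 was at 1962, 2122 and 2069 TPM in SN and 2536, 2753 and 2787 TPM in SH, with 0.39 ± 0.11 (SE, adjusted p = 0.014).

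Other genes of the translation machinery moved in both directions. Among 15 translation factors and related genes with TOP mRNAs, 6 rose and 1 fell in UH vs UN and 8 rose in SH vs SN (4 to 11 and 6 to 9 rose across 5 other scalings), where 13.0% and 21.5% of all genes rose. Eef2, the elongation factor that drives translocation, was at 1908, 1845 and 1625 TPM in UN, 3686, 4480.4 and 4068 in UH, 2279, 2155 and 2330.1 in SN and 3628, 3949.7 and 4318 in SH, and rose by 1.18 ± 0.11 (SE, adjusted p = 7.69e-06) in unsorted and 0.81 ± 0.11 (SE, adjusted p = 0.000181) in sorted cells. Of 5 host genes of small nucleolar RNAs that were tested, 2 rose in UH vs UN and 4 between SN and SH (2 to 3 and 3 to 4 across the other scalings), led by Snhg12 and Gas5. Gas5 was at 328, 319 and 367 TPM in SN and 819.8, 864 and 1036 TPM in SH (1.42 ± 0.13 SE, adjusted p = 1.06e-05).

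Most genes that build ribosomes fell under hypoxia. Of 38 ribosome assembly genes tested, 30 were lower and 1 was higher in UH than in UN, with a median log2 fold change of -1.001, and 31 were lower and 2 higher in SH than in SN, with a median of -0.77. Of all genes, 33.5% and 19.5% were lower in these comparisons. Across 5 other scalings 25 to 33 fell in UH vs UN and 30 to 31 between SN and SH. Dkc1, the pseudouridine synthase of box H/ACA particles, was at 111, 145 and 137 TPM in UN, 12.9, 15.5 and 18.5 in UH, 159, 182 and 151 in SN and 30.1, 36.7 and 55.9 in SH. It fell with -2.99 ± 0.20 (SE, adjusted p = 5.88e-07) in unsorted and -2.02 ± 0.20 (SE, adjusted p = 1.67e-05) in sorted cells. Nop56, of box C/D particles, fell with -1.86 ± 0.15 (SE, adjusted p = 2.25e-06) and -1.02 ± 0.15 (SE, adjusted p = 0.000275). Sbds, which helps release Eif6 from the new large subunit, rose in both, with 0.59 ± 0.11 (SE, adjusted p = 0.00129) and 0.33 ± 0.11 (SE, adjusted p = 0.0365). Of 6 dedicated chaperones of single ribosomal proteins, 5 fell in each comparison (4 to 6 and 4 to 5 across the other scalings). Grwd1, the chaperone of Rpl3, was at 39.9, 41.7 and 34.9 TPM in UN, 10.3, 10.4 and 11.4 in UH, 59.2, 56.9 and 43.7 in SN and 17.5, 15.7 and 24.5 in SH, opposite in direction to Rpl3 itself. Bccip, the chaperone of Rpl23, fell with -1.37 ± 0.10 (SE, adjusted p = 1.28e-06) and -0.82 ± 0.10 (SE, adjusted p = 8.32e-05).

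The 77 genes of the mitochondrial ribosome, matched by name as Mrpl or Mrps, gave 2 higher and 62 lower in UH than in UN (median -0.65), and 3 higher and 51 lower in SH than in SN (median -0.46). Across the other scalings 31 to 66 fell in UH vs UN and 38 to 56 between SN and SH. Of 14 genes that control ribosomal protein mRNAs, the same 3 rose in each comparison. Among all genes tested, 13.0% rose from UN to UH and 21.5% from SN to SH. The 21.5% is close to the share of the list. The 3 in the list were Ddit4 and Sesn2, inhibitors of mTOR signaling, and Eif4ebp1, which inhibits the cap-binding protein Eif4e. Larp1 and Eif4e were the 2 that fell in SH vs SN and were among 7 that fell in UH vs UN (2 to 3 and 3 to 8 across the other scalings), against 19.5% and 33.5% of all genes. Mtor was at 11.4, 10.9 and 11.1 TPM in UN and 2.81, 5.37 and 4.95 TPM in UH (-1.21 ± 0.19 SE, adjusted p = 0.000257), and did not pass in SH vs SN. RNA levels give no measure of kinase activity or of translation.

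**Figure D5:**
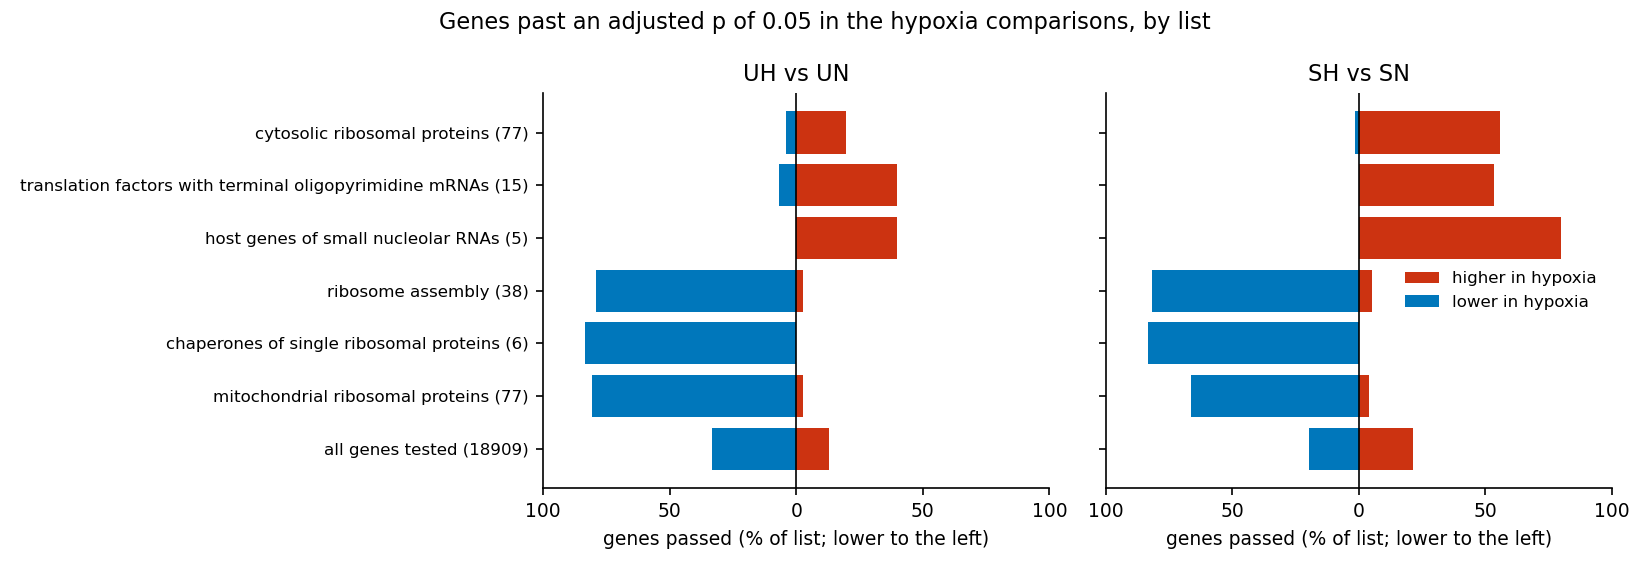
Percentage of genes in each list (number tested in parentheses) that were higher (right, red) or lower (left, blue) at an adjusted p of 0.05 in each hypoxia comparison (UH vs UN, SH vs SN). Cytosolic ribosomal protein genes extend to the right in both panels, and ribosome assembly, chaperone and mitochondrial ribosomal protein genes to the left. After quantile normalization more of the cytosolic genes were lower than higher in UH vs UN, which was also so for all genes tested.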

How the data were processed

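RNA-seq was performed on 12 libraries, 3 each of UN, UH, SN and SH cells. The authors deposited a gene table in TPM from the salmon step of nf-core/rnaseq 3.12.0. The submitters' processing notes name mm10, and the annotation release is not given in the sources used here. No counts were used, so library depth is unknown and no counting intervals are given. Gene coordinates came from GENCODE M21, and promoter sequences from RefSeq (GRCm38.p6). Groups came from the sample titles.

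Genes with a mean of at least 0.1 TPM were fitted as log2(TPM + 1) with limma 3.58.1 in R 4.3.3, with 4 group means and a mean-variance trend in the empirical Bayes step, and p-values were adjusted by the Benjamini-Hochberg method over all genes. A 2-fold limit was used where named. Scripts were tested on simulated data. Some genes are not reported here by name. The members and lists were chosen with earlier results of these data known, and the tests of members therefore describe these libraries. Named members were the 6 with the highest mean, the 3 that rose and fell most among those that passed, and members with a known role. Alternatives were other pseudocounts, filters, scalings, exclusions of pseudogenes and copies, a replicate block, and leaving out each library. The replicate numbers did not pair the libraries, since residuals of same-numbered libraries correlated at -0.116 to 0.141. Replicates of a group correlated at 0.977–0.991 over genes.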

Additional observations from a re-analysis of the deposited data

Results flagged for a closer look

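Members whose response to hypoxia differed between sorted and unsorted cells in a direct test were picked out. The difference, (SH - SN) - (UH - UN) on the log2 scale, was 0.6441 for Rpl34, 0.6417 for Rpl22, 0.6014 for Rpl39, 0.526 for Rpl9, 0.5141 for Rpl23 and 0.4596 for Rpl3. Groups of 3 libraries were too small for a search for single outlying libraries.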

How the results depend on the processing

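With median-of-ratios scaling, 48 members passed in UH vs UN (median 0.55), 12 in SN vs UN (-0.17) and 16 in the comparison of SH with UN (0.23) with more higher than lower. It left 0 in the difference between responses (-0.13, the reverse direction). Its medians were -0.27 in SH vs UH and -0.72 in SN vs UH, and Rpl35 turned to 0.050 in UH vs UN. With quantile normalization, 19 passed in UH vs UN, mostly lower (-0.078), 24 in SH vs SN (0.19), 25 in SN vs UH (-0.15) and 10 in the difference between responses, and the medians were 0.039 in SH vs UH and -0.069 in SH vs UN. In SH vs UN the balance also turned to more higher than lower when TPM was rescaled without the 20 highest other genes (30 passed) or without the members (23). For the 21 members without a named pseudogene, 4 passed in SN vs UN, 7 between SH and UN with more higher than lower, and 1 in the difference between responses, and the median was -0.28 in SN vs UH. With the compared groups alone 6 passed in UH vs UN, and with no filter on low values 3 in the difference between responses. The cause was not tested.

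With 1 library left out, between 13 and 29 members passed in UH vs UN (29 without UH replicate 3; medians 0.058 to 0.24), 27 to 49 in SH vs SN (0.33 to 0.40), 21 to 38 in SN vs UN (-0.30 to -0.27), 12 to 18 in SH vs UH (-0.18 to 0.030), 19 to 36 in SH vs UN (0.02 to 0.10; more higher than lower without UN replicate 1, UH replicate 1, SH replicate 1 or SH replicate 2), 42 to 55 in SN vs UH (-0.51 to -0.35) and 2 to 17 in the difference between responses (0.090 to 0.29). Relative to the mean of the members the counts were 11 to 22 in UH vs UN, 10 to 23 in SH vs SN, 12 to 28 in SN vs UN, 12 to 24 in SH vs UH and 0 to 9 in the difference. The lowest of these were without UN replicate 3 in UH vs UN, without SH replicate 2 in SH vs SN, without SN replicate 2 in SN vs UN and without SH replicate 1 in SH vs UH, and the highest of all 5 without UN replicate 1. Without a trend in the moderation these were 11 in SH vs SN, 14 in SN vs UN, 12 in SH vs UH and 1 in the difference, which was also 1 with no filter, with named pseudogenes added and with near-identical copies added, an alternative chosen after seeing the data.

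The replicate block left 3 members past the threshold in the difference between responses and 1 relative to the mean of the members, and it moved no other count by over 1.5 times. The numbers did not pair the libraries.

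The summed share became 16.6% in UN and 14.4% in SN without mitochondrially encoded genes. Without the 20 highest other genes it was 17.4% in UN, 20.5% in UH, 15.2% in SN and 19.6% in SH. With named pseudogenes added it was 16.4% in UN, 13.9% in SN and 17.7% in SH, and with near-identical copies 17.2%, 14.6% and 18.7%. Of the values of members named by rule under all alternatives, 43 kept their direction and no longer passed, 503 kept both and 1 reversed. Depth was unknown, so what it limits cannot be stated.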
